A study of Mus musculus with 4 samples.

Results

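Cytosolic ribosomal proteins are the proteins of the large and the small subunit of the ribosome that translates messenger RNA outside the mitochondria. They were chosen by probe name: probes called Rpl or Rps with a number, Rplp0 to Rplp2, or Rpsa, without the Rps6 kinases and without names of pseudogenes or of paralogs that end in l. This gave 128 of 41174 probes, for 76 genes: 42 of the large subunit, 3 of its P stalk and 31 of the small subunit. Of these, 75 genes were among the 18042 genes tested. Every one of the 75 was well above background in all 8 livers, so no member was left out of the test for low signal. Rpl3 was the gene not tested, because outlier spots left it with a value on array 3 alone, a log2 ratio of -0.53.

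Liver RNA of 4 mice given an antisense oligonucleotide (ASO) against Plin2 was compared with liver RNA of 4 mice given a scrambled control ASO. Such oligonucleotides pair with a chosen transcript so that it is degraded or not used. Plin2 encodes perilipin 2, a coat protein of lipid droplets. All mice were C57BL/6 males fed a high-fat diet, and the intraperitoneal dose of either ASO was 25 mg/kg, given 2 times a week for 4 weeks. Each of 4 two-colour oligonucleotide arrays held 1 mouse of each group, with Plin2-ASO mice 6, 7, 9 and 10 in green (Cy3) and control mice 1, 2, 4 and 5 in red (Cy5) on arrays 1 to 4. The dyes were never exchanged and all arrays lay on 1 slide read in 1 scan, so dye and treatment cannot be told apart.

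The level of Plin2 was not lowered in the mice labelled Plin2-ASO: the log2 ratios of Plin2-ASO over control were 0.24, 0.15, 0.83 and 0.36 on arrays 1 to 4, with a mean of 0.40 ± 0.15 (SE, n = 4 arrays) and an adjusted p of 0.156 (limma). The direction of every value below therefore rests on the labels. Array 3 stood apart: 7.61% of its spots were marked as outliers, against 1.5% to 3.83% on the others, and its ratios correlated with probe GC content at -0.30 across probes, against 0.04 to 0.25 on the others. Of all genes tested, 660 were higher and 1093 lower in the livers labelled Plin2-ASO at an adjusted p under 0.05, and their median log2 ratio was -0.03.

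A ribosome joins a small subunit, which reads the messenger RNA, to a large subunit, which makes the peptide bond. Cells make the ribosomal proteins in matched amounts, and in mammals their transcripts start with a run of pyrimidines (a 5′ terminal oligopyrimidine, or TOP, sequence) through which the TOR kinase pathway controls their translation together. In liver, where much protein is made for export, ribosomal protein transcripts are among the most abundant.

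The promoters are shown because the run of pyrimidines is the feature that these genes are known to share. Promoter sequences of RefSeq (build GRCm38.p6) were at hand for 56 of the 75 tested genes, as 65 promoters. The windows below run from 50 bases before to 30 bases after the annotated start, and capitals mark the longest pyrimidine run between 40 bases before and 50 bases after the start that lies in the window. They belong to the tested genes with the lowest mean ratios in the small and in the large subunit (Rps12, chr10:23787180-23787259, minus strand, and Rpl38, chr11:114668530-114668609, plus strand) and to Rpl4 (chr9:64173337-64173416, plus strand), the large subunit gene outside the P stalk with the highest.
Rps12: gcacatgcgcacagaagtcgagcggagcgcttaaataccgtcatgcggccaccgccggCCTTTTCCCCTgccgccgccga
Rpl38: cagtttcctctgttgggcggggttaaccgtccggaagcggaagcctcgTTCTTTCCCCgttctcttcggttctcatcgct
Rpl4: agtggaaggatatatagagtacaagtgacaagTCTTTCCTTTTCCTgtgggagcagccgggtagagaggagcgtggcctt
A run of at least 8 pyrimidines on the transcript's strand lay between 40 bases before and 50 bases after the start in 78.5% of the members' promoters, against 32.5% of all 32851 promoters. The letters CCGGAAG, on either strand from 250 bases before to 50 bases after the start, were in 36.9% of the members' promoters and 8.86% of all. CTTTCC, which overlaps pyrimidine runs, was in 50.8% and 26.6%. TATAA was in 24.6% and 24.9%. Such matches describe letters and not binding. A counted run may lie before the annotated start, as the marked run of Rpl4 does. It then need not be part of the transcript. The longest run of Rpl4 between these limits, of 15 pyrimidines, is another one. It lies after the annotated start and reaches past the end of the printed window. The median log2 ratio was -0.53 over the 46 genes with a run and -0.46 over the 10 genes without one, a difference that was not tested.

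Ribosomal protein transcripts were lower in the livers labelled Plin2-ASO for 13 of the 75 tested genes, or 17.3%, and higher for none (limma, adjusted p under 0.05). Over all genes, 6.06% were called lower and 3.66% higher. The median log2 ratio of the 75 genes was -0.52, 1.44-fold lower, and 72 of them had a mean below 0, where 53.8% of all genes did. At an unadjusted p under 0.05 the test placed 49 of the 75 lower and none higher, where 15.7% of all genes were lower. On 3 of the 4 arrays the shift covered almost the whole set: 69, 72 and 72 of 75 genes were below 0 on arrays 1, 2 and 4, and 35 on array 3, where 49.3% of all genes were below 0. The median of the 75 log2 ratios was -0.41, -0.77 and -0.95 on arrays 1, 2 and 4, and 0.02 on array 3.

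**Figure D1:**
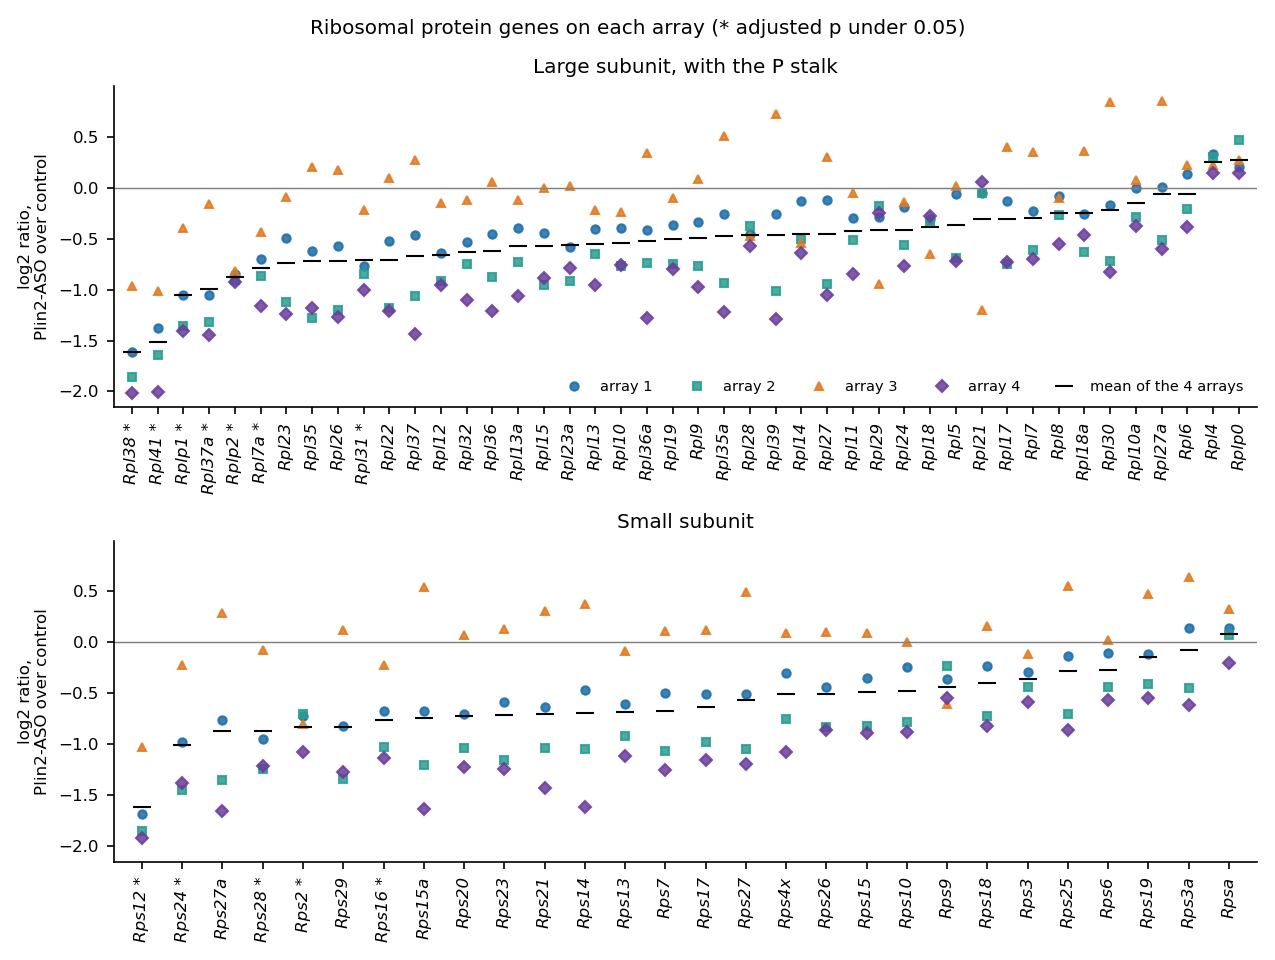
Log2 ratio of Plin2-ASO over control for 72 of the 75 ribosomal protein genes (x axis, ordered by mean) on each array (marker shape and colour), with the mean of the 4 arrays as a black bar. Asterisks mark the 12 of these genes with an adjusted p under 0.05. Array 3 (triangles) gave the highest ratio of 62 of the genes drawn, and array 4 (diamonds) the lowest of 59.

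The 4 arrays fell into 2 patterns among the members. Lower on all 4 arrays were 34 of the 75 genes, where 19.5% of all genes measured on all arrays were. Another 34 were lower on arrays 1, 2 and 4 and higher on array 3, a pattern of 17.9% of all genes. In 26 of the 75 all livers labelled Plin2-ASO had a lower level than all control livers (10.7% of all genes), and in none were they all higher (5.9%). Over the 75 genes the ratios of arrays 1 and 2, 1 and 4, and 2 and 4 correlated at r of 0.86, 0.81 and 0.94, and those of arrays 1 and 3, 2 and 3, and 3 and 4 at 0.46, 0.08 and 0.03. These are descriptions across genes that share an array, and genes are not independent replicates. Without array 3, 61 of 75 genes were called lower (limma, adjusted p under 0.05), where 20.8% of all genes were. Without array 1, 2 or 4 the call was left for 3, 3 and 5 genes, where 1.25%, 1.23% and 3.97% of all genes were called lower. Rps12, Rpl38 and Rpl41 kept their call when either array 1 or array 2 was left out.

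The members are bright on these arrays, so they were set beside other bright genes. The median log2 level of the 75 genes was 15.65, against 9.70 for all genes, and 69 of the 75 lay above 14. Among the 961 other genes with a mean level above 14, 9.26% were called lower, and their median log2 ratio was -0.05. They were dimmer than the members: their median level in the control livers was 14.99 to 15.05, against 15.71 to 16.07. The 2 sets were therefore not matched in brightness. On arrays 1 to 4 the median of these other bright genes was -0.05, 0.01, -0.01 and -0.08. Loess normalization centres the ratios at each brightness, so medians near 0 were largely set in advance. They are therefore no test of an effect of brightness. No spot was saturated. Fitting the loess curve, which centres the ratios at each brightness, without the ribosomal protein probes gave medians of -0.45, -0.82, 0.02 and -1.005 for the members on arrays 1 to 4.

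**Figure D2:**
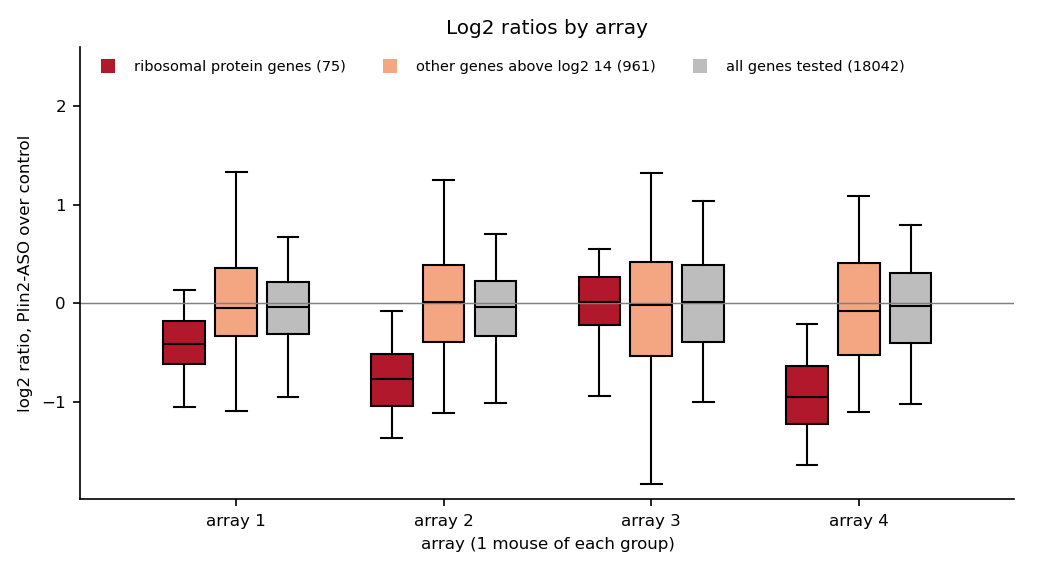
Log2 ratio of Plin2-ASO over control on each array for the 75 ribosomal protein genes (dark red), 961 other genes with a mean log2 level above 14 (orange) and all 18042 genes (grey). Boxes span the quartiles with the median as a line, and whiskers reach the 5th and 95th percentiles. The boxes of the members lie below 0 on arrays 1, 2 and 4 and span 0 on array 3.

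The ribosomal protein genes gave 4.26%, 3.65%, 5.44% and 3.28% of the summed signal of all genes in the livers labelled Plin2-ASO on arrays 1 to 4, against 6.01%, 6.33%, 5.57% and 6.29% in the control livers. The 2 groups do not overlap, and the liver labelled Plin2-ASO on array 3 lay nearest to the control livers. These are shares of normalized intensity and not of molecules, since probes differ in brightness per transcript. In whole-liver RNA, fewer cells of a type and less RNA per cell cannot be told apart.

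In the small subunit 6 of 31 genes (19.4%) were called lower, where 6.06% of all genes were. The median log2 ratio was -0.60. Rps12, a small subunit protein near the beak of the particle, had the lowest ratio of all members. Its normalized log2 levels were 15.29, 15.47, 15.91 and 15.51 in the livers labelled Plin2-ASO on arrays 1 to 4, against 16.97, 17.32, 16.94 and 17.43 in the control livers. All livers labelled Plin2-ASO were below all control livers. Its mean log2 ratio was -1.62 ± 0.18 (SE, n = 4 arrays), 3.08-fold lower, with an adjusted p of 0.0039 (limma).

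Rps24, a gene in which variants are known to cause Diamond-Blackfan anaemia in humans, stood at 15.59, 15.38, 16.19 and 15.31 in the livers labelled Plin2-ASO, against 16.57, 16.83, 16.40 and 16.69 in the control livers. The groups did not overlap, and the gap was smallest on array 3. The mean ratio was -1.01 ± 0.22 (SE, n = 4) with an adjusted p of 0.033. Rps2, a protein at the messenger RNA entry of the small subunit, was even across arrays on its tested probe alone. The log2 ratios of that probe were -0.73, -0.71, -0.80 and -1.07, with an adjusted p of 0.012. Another Rps2 probe, of nearly the same brightness (16.17, against 16.39), had uneven ratios of -0.11, 0.03, -0.83 and -0.31. Rps28 (-0.87, adjusted p 0.047) and Rps16 (-0.77, adjusted p 0.041) also fell, each with levels in the livers labelled Plin2-ASO that lay below all control livers. Both lay close to the threshold: of 15 alternative settings that kept all arrays, Rps28 lost its call in 10 and Rps16 in 6.

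Other small subunit genes did not pass. Rps27a, which encodes a ubiquitin fused to a ribosomal protein, had ratios of -0.76, -1.35, 0.29 and -1.66 (adjusted p 0.119). Rps6, the classic substrate of the S6 kinases of the TOR pathway, had levels of 14.08, 14.14, 14.23 and 13.99 in the livers labelled Plin2-ASO, against 14.18, 14.58, 14.22 and 14.55 in the control livers. These levels overlapped, and its mean ratio was -0.27 (adjusted p 0.290). Rps19, the gene most often affected in Diamond-Blackfan anaemia, had a mean of -0.15 (adjusted p 0.662), and Rps4x, the X-linked form of Rps4, one of -0.51 (adjusted p 0.166). Rps3a lay near 0, at -0.07.

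Rpsa, which is a small subunit protein and is also known as a laminin receptor, was the small subunit gene above 0. Its levels were 15.22, 14.96, 15.18 and 14.67 in the livers labelled Plin2-ASO, against 15.07, 14.89, 14.85 and 14.88 in the control livers. The groups overlapped, and the mean ratio was 0.09 ± 0.14 (SE, n = 4, adjusted p 0.737). Another Rpsa probe, with a mean log2 intensity of 7.71, averaged -0.14.

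**Figure D3:**
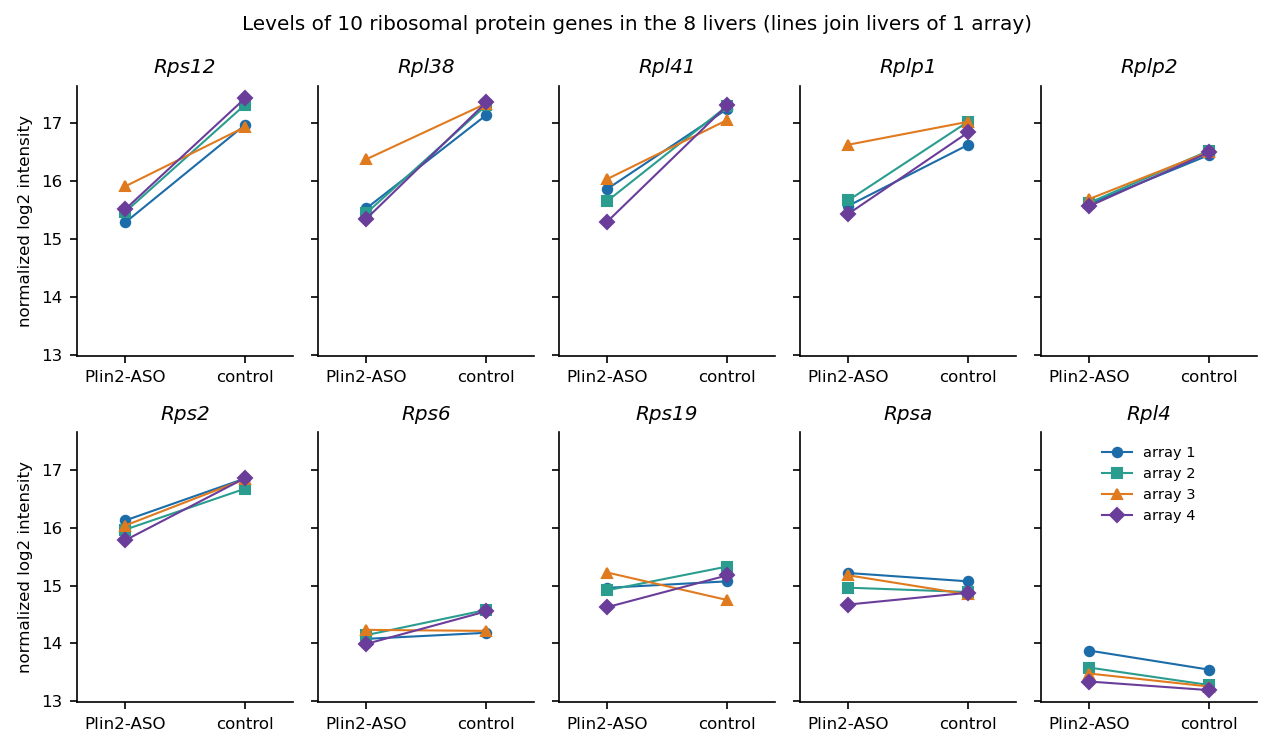
Normalized log2 intensity of 10 ribosomal protein genes in the 8 livers, with livers labelled Plin2-ASO on the left and control livers on the right of each panel, and a line joining the livers of 1 array. Rps12, Rpl38, Rpl41, Rplp2 and Rps2 show no overlap between groups, while Rps6, Rps19 and Rpsa overlap and Rpl4 slopes the other way.

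In the large subunit without the stalk, 5 of 41 genes (12.2%) were called lower, where 6.06% of all genes were. The median log2 ratio was -0.50. Rpl38, known in mice for the tail-short mutant and for its part in the translation of Hox transcripts, stood at 15.53, 15.45, 16.38 and 15.35 in the livers labelled Plin2-ASO, against 17.14, 17.31, 17.34 and 17.36 in the control livers. All livers labelled Plin2-ASO were below all control livers. The mean ratio was -1.61 ± 0.19 (SE, n = 4), 3.06-fold lower (adjusted p 0.0048). Rpl41, the smallest ribosomal protein, showed the same order, with 15.87, 15.66, 16.04 and 15.30 in the livers labelled Plin2-ASO, against 17.25, 17.30, 17.06 and 17.31 in the control livers and a mean ratio of -1.51 ± 0.18 (SE, n = 4, adjusted p 0.0049).

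Rpl37a had ratios of -1.05, -1.32, -0.16 and -1.44 (adjusted p 0.036); its levels overlapped through the liver labelled Plin2-ASO on array 3. Rpl7a fell by 0.79 on the log2 scale (adjusted p 0.024). Rpl31 (-0.71, adjusted p 0.040) differed from the other called genes in brightness: its level averaged 9.88 in the livers labelled Plin2-ASO, against 10.59 in the control livers, the lowest levels among the 75 genes. Just short of the threshold were Rpl12 (-0.67, adjusted p 0.053), Rpl28 (-0.47, adjusted p 0.058) and Rpl10 (-0.54, adjusted p 0.065). Each had all 4 livers labelled Plin2-ASO below all control livers. Rpl10 joins the large subunit late in its assembly.

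Rpl5 and Rpl11, which with 5S ribosomal RNA can bind Mdm2 and so stabilise p53 when ribosome assembly is disturbed, had means of -0.37 and -0.43 (adjusted p 0.229 and 0.146). Rpl13a, known in human cells as a regulator of translation after interferon gamma, averaged -0.58 (adjusted p 0.091) and was lower on all 4 arrays. Rpl39, at the exit of the peptide tunnel, ranged from -1.29 on array 4 to 0.72 on array 3, with a mean of -0.46 (adjusted p 0.391). Rpl4, which also lines the peptide tunnel, had ratios above 0 on all 4 arrays, as 14.9% of all genes measured on all arrays did. Its levels were 13.88, 13.58, 13.48 and 13.34 in the livers labelled Plin2-ASO, against 13.55, 13.28, 13.25 and 13.19 in the control livers. These levels overlapped, and the mean ratio of 0.25 ± 0.12 (SE, n = 4) did not pass (adjusted p 0.239). Rpl27a and Rpl6 lay near 0, both at -0.06.

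The P stalk, through which the ribosome recruits and activates the elongation factors, consists of Rplp0 at its base and of pairs of Rplp1 and Rplp2. Rplp2 had the most even values of the called genes, with 15.61, 15.63, 15.69 and 15.57 in the livers labelled Plin2-ASO, against 16.45, 16.53, 16.51 and 16.50 in the control livers. Its mean ratio was -0.87 ± 0.12 (SE, n = 4), 1.83-fold lower (adjusted p 0.0080). Rplp1 stood at 15.57, 15.67, 16.63 and 15.43 in the livers labelled Plin2-ASO, against 16.63, 17.03, 17.03 and 16.84 in the control livers. The groups overlapped through array 3, whose liver labelled Plin2-ASO equalled the lowest control liver to 2 decimals, and the mean ratio was -1.06 ± 0.19 (SE, n = 4, adjusted p 0.019).

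The probe named Rplp0 did not follow Rplp1 and Rplp2: its ratios were 0.20, 0.47, 0.27 and 0.15, with a mean of 0.27 ± 0.13 (SE, n = 4, adjusted p 0.223). This probe is listed on chromosome 8 (mm7, chr8:101459316-101459375, minus strand), while RefSeq places Rplp0 on chromosome 5. It was the only one of 126 member probes with a position whose chromosome differed from that of its gene in RefSeq. Another 2 probes outside the name rule are called Arbp, an older symbol of Rplp0, and lie on chromosome 5. One of them (mm7, chr5:114784305-114784364, plus strand) had ratios of -0.68, -0.63, -0.72 and -0.80, with a mean of -0.71 and an adjusted p of 0.016. The other (mm7, chr5:114782273-114782332, plus strand) had ratios of 0.16, 0.22, -0.21 and 0.18 and a mean of 0.09, with an adjusted p of 0.722 in the fit of all probes. The sequences of the probe named Rplp0 and of the second Arbp probe are shown because the reading for the stalk base depends on which probe is taken.
Rplp0, chromosome 8: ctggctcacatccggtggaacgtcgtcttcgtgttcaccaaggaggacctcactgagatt
Arbp, chromosome 5: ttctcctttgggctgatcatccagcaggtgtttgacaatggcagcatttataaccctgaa
A level for the stalk base was therefore not settled by these probes, and the difference between them was not tested. The Arbp probe with a mean ratio of -0.71 was the brightest, with a mean log2 intensity of 16.12. The other Arbp probe had 14.93 and the probe named Rplp0 had 12.59.

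Some proteins of the ribosome fall outside the name rule. Fau, a fusion of a ubiquitin-like protein with the small subunit protein eS30, had ratios of -1.05, -1.10, -0.53 and -1.31 (mean -0.996, adjusted p 0.013). Rack1 (named Gnb2l1 in the files), a scaffold on the small subunit, averaged -0.69 (adjusted p 0.045) and lost its call in 8 of the 15 settings. Both were lower on all 4 arrays. Rpl34, listed under a clone name, averaged -0.66 and did not pass (adjusted p 0.091). None of the 5 paralogs tested passed: Rpl22l1 averaged -0.43, Rps27l -0.35, Rpl36al -0.28, Rpl7l1 -0.06 and Rps4l 0.10.

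Several members had more than 1 probe, and the probes of a gene did not always tell the same story. Of the 128 probes, 122 were well above background on at least 3 arrays in 1 channel and 120 could be tested. Of these, 19 were lower and none higher in the livers labelled Plin2-ASO (limma over all probes, adjusted p under 0.05), where 5.64% of all probes were lower and 4.35% higher. At an adjusted p under 0.1, 1 probe was higher. The 19 belong to 16 genes, which include Rpl36a and Rpl12 besides genes called in the gene fit. In 34 genes at least 2 probes were tested. Their mean log2 ratios differed in sign in 9 genes and by over 0.5 in 11, and the median gap between the highest and the lowest probe of a gene was 0.24.

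The gaps often went with brightness. Of the 102 tested probes with a mean log2 intensity above 12, 97 were below 0, with a median ratio of -0.50. Of the 18 at or below 12, 11 were below 0, with a median of -0.10, and the 2 called there were both Rpl31 probes. Among the 23 genes with several probes above 12 the median gap was 0.17, the largest was 0.58, and the sign differed in 2. Over the 75 genes brightness and mean log2 ratio correlated at r of -0.49 (Spearman's rho -0.72), while the GC content of the probe and the mean ratio correlated at r of 0.10. On arrays 1 to 4 the r of GC content and the ratio was 0.09, 0.25, -0.30 and 0.27. The value for the mean ratio thus hides opposite signs on single arrays. These correlations are across genes of the same arrays and carry no test.

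**Figure D4:**
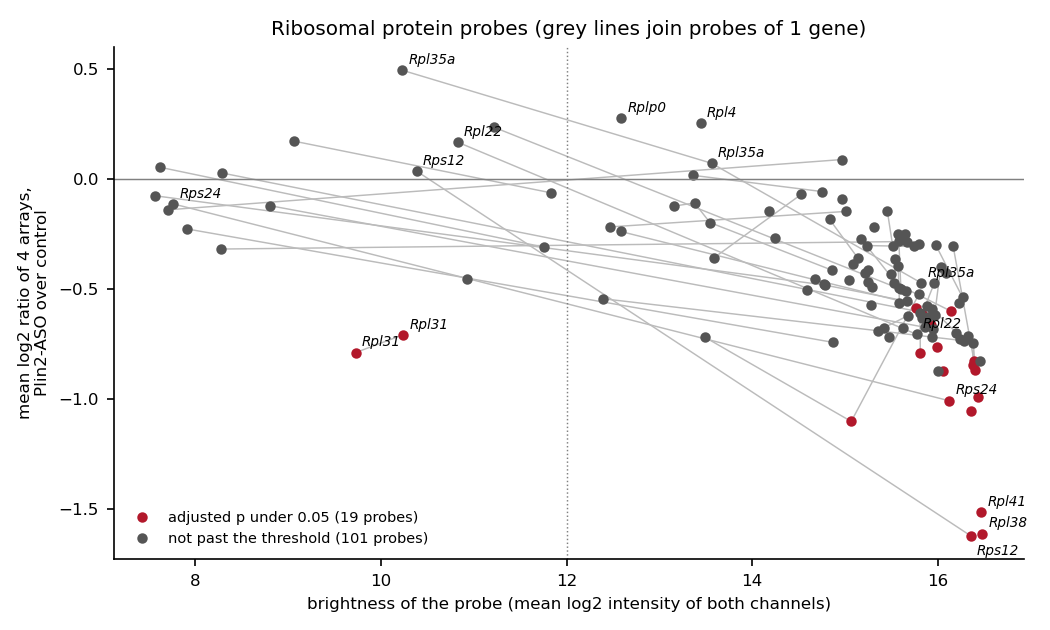
Mean log2 ratio of Plin2-ASO over control (y axis) against brightness (x axis, mean log2 intensity of both channels) for the 120 tested ribosomal protein probes, with red points for the 19 past the threshold and grey lines joining probes of 1 gene. The dotted line is at 12. Of the 18 probes left of it or on it, the 2 of Rpl31 passed the threshold.

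Rps12 showed the widest gap. Its bright probe (mm7, chr10:23538288-23538347, minus strand), whose sequence is given because it carries the lowest ratio of all members, had the ratios described above.
Rps12, bright probe: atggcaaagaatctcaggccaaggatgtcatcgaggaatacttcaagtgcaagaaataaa
The other Rps12 probe came from a cDNA clone (mm7, chr10:23539315-23539374, minus strand). It had ratios of -0.03, 0.09 and 0.04 on arrays 1, 3 and 4 and no value on array 2. Its mean brightness was 10.39, against 16.36 for the bright probe. Rps24 had a bright probe at -1.01 and a dim clone probe at -0.11. Rpl22 had probes at -0.71 and 0.17, and Rps4x at -0.51 and 0.23. Both of these pairs differed in sign, with the dimmer probe above 0. Among bright pairs, Rps2 gave -0.83 and -0.31 and Rpl7a gave -0.79, -0.61 and -0.27. For Rpl13, Rps13, Rps15a, Rps18 and Rpl21, too, the probe nearest 0 was the dimmest. Other genes went the other way, with the dimmer probe lower. Among them were Rps3a (-0.36 against -0.07), Rpl31 (-0.79 against -0.71) and Rps25 (-0.32 against -0.29).

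Some probes of a gene share bases. A pair of Rpl35a is printed with its longest shared run in capitals.
Rpl35a, brighter probe: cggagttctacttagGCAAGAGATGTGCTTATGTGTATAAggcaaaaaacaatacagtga
Rpl35a, dimmer probe: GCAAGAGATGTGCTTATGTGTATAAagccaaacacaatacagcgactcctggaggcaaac
The Rpl35a pair (mm7, chr16:32732018-32733213 and chr16:32732033-32733233, both plus strand, across an exon junction) overlaps by 45 bases with 4 mismatches. The brighter probe had ratios of -0.26, -0.93, 0.51 and -1.22 and the dimmer one 0.10, -0.47, 1.42 and -0.76. On every array the dimmer probe read higher, and the means were -0.47 and 0.07. Another Rpl35a probe, from a clone, averaged 0.49 at a brightness of 10.23. For Rpl36a, 2 probes that share 40 bases with no mismatch in the overlap gave -1.10 and -0.72, and the brightest probe, elsewhere in the gene, gave -0.52. Ribosomal protein genes have many processed pseudogenes in mammals, and transcripts of near-identical copies that bind a probe cannot be told apart on an array.

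Genes that work with the ribosome were set beside its proteins. For each list below, the shares over all genes to compare with are 6.06% called lower and 3.66% called higher. At an unadjusted p under 0.05 in limma, 15.7% of all genes were lower. Of 77 mitochondrial ribosomal proteins none was lower (3 at an unadjusted p under 0.05 in limma) and 1 was higher (Mrps5, 0.72, adjusted p 0.021), and their median log2 ratio was 0.01. The next by p were Mrps18a (0.45), Mrps6 (-0.49) and Mrps11 (0.55), none past the threshold. The medians of the mitochondrial genes were -0.09, -0.10, 0.45 and -0.21 on arrays 1 to 4. Their median level in the control livers was 12.13 to 12.41, against 15.71 to 16.07 for the members. The lists of translation factors, initiation factors, biogenesis factors, RNA polymerase I and TOR genes were also dimmer than the members. None of these lists was matched to them in brightness. Of 24 translation factors and other non-ribosomal TOP transcripts 1 was lower, Vim, which encodes vimentin, an intermediate filament of mesenchymal cells (-1.95, adjusted p 0.012), and the list's median was -0.16. Pabpc1, the poly(A) binding protein, had -0.49, Eif3f, an initiation factor subunit, 0.35, and Naca, a chaperone of nascent chains, -0.36, and none of these passed. The median of this list was nearer 0 than that of the ribosomal proteins (-0.52), a difference that was not tested.

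Of 30 initiation factors, Eif4g1, the scaffold of the cap-binding complex, was higher (0.82, adjusted p 0.031), none was lower (2 unadjusted), and the median was -0.11. Eif4a2 (0.60), Eif2b2 (-0.42) and Eif4g3 (-0.31) did not pass. Of 39 ribosome biogenesis factors Rcl1, which acts in the maturation of small subunit RNA, was higher (0.56, adjusted p 0.049), none was lower (2 unadjusted), and the median was -0.03; Pes1 (-0.49), Pwp1 (-0.61) and Sbds (0.30) did not pass. None of 14 RNA polymerase I genes passed in limma, 1 was lower at an unadjusted p under 0.05, and the median was -0.08. The lowest p there was that of Ubtf (-0.44), the factor that opens ribosomal DNA, followed by Znrd1 (-0.36), Polr1e (0.28) and Taf1c (-0.27).

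Of 27 genes of the TOR pathway and of regulators of TOP transcripts, 4 were higher and 1 was lower, with a median of 0.20. Eif4ebp3, a translational repressor that binds the cap-binding protein, had ratios of 2.08, 2.33, 2.74 and 1.28, a mean of 2.11 ± 0.23 (SE, n = 4) and an adjusted p of 0.0040. Pdcd4, which inhibits the helicase Eif4a, averaged 0.84 (adjusted p 0.028). Mycn, a transcription factor of the Myc family, is counted among the 4 but was dim: it was well above background in 3 livers labelled Plin2-ASO and 2 control livers, and so passed the background filter through the group in which it was higher. Mlst8, a subunit of both TOR complexes, had ratios of -0.76, -0.81, -0.72 and -0.76 and fell by 0.76 on the log2 scale (adjusted p 0.012). Deptor, an inhibitor of TOR, was the other gene past the threshold and was higher by 0.54 (adjusted p 0.041).

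**Figure D5:**
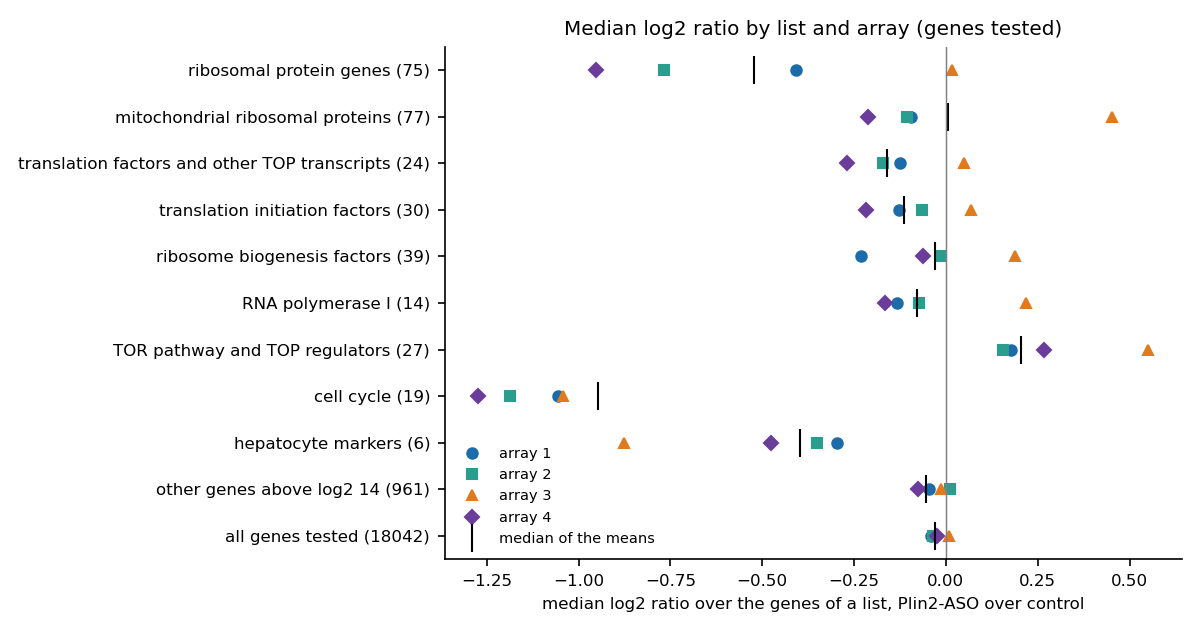
Median log2 ratio of Plin2-ASO over control over the tested genes of each list (number in brackets) on each array (marker shape and colour), with the median of the genes' means as a black bar. The ribosomal proteins lie at -0.41, -0.77 and -0.95 on arrays 1, 2 and 4 and at 0.02 on array 3; the cell cycle genes lie near or below -1 on all 4 arrays.

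Markers of dividing cells and of several liver cell types also moved. Of 19 cell cycle genes 16 were lower. Among these, Bub1, Cdk1 and Ccnb1 were well above background in 0, 0 and 1 livers labelled Plin2-ASO and in all 4 control livers, so they passed the background filter through the group in which they were higher. The other 16 genes were well above background on at least 3 arrays in both groups, and 13 of them were lower. Hepatocyte markers were present in all livers, with summed levels of 365118 to 468225 in the livers labelled Plin2-ASO, against 602751 to 710254 in the control livers; 1 of 6 (Alb) was lower, none was higher, and the median was -0.40. Of 9 macrophage markers 6 were lower and 2 (Clec4f and Marco) higher, with summed levels of 29356 to 60148 in the livers labelled Plin2-ASO, against 76026 to 146293 in the control livers. Of 8 stellate cell markers 5 were lower, with summed levels of 24124 to 30611 in the livers labelled Plin2-ASO, against 58329 to 118686 in the control livers. Of 8 endothelial markers 5 were lower, with summed levels of 12992 to 17103 in the livers labelled Plin2-ASO, against 21912 to 30889 in the control livers. Lymphocyte markers were lower in 1 of 9. Their summed levels were 4627 to 7471 in the livers labelled Plin2-ASO, against 6786 to 8078 in the control livers. Of 4 cholangiocyte markers 2 were lower and 2 had a mean above 0. The summed cholangiocyte levels were 7377 to 12694 in the livers labelled Plin2-ASO, against 23581 to 43604 in the control livers. The cholangiocyte median log2 ratio ranged from -0.59 to -0.02 across arrays. Of 5 tested adipocyte markers 1 (Cfd) was higher and 4 were above 0, with summed levels of 6738, 11883, 65834 and 12612 in the livers labelled Plin2-ASO on arrays 1 to 4, against 13451 to 25210 in the control livers. The liver labelled Plin2-ASO on array 3 was the highest of all 8, and the adipocyte median log2 ratio there was 1.96, against -0.17 to 0.20 on the other arrays. Of 2 tested erythroid markers 1 (Alas2) was higher, with summed levels of 59723 to 146026 in the livers labelled Plin2-ASO, against 51505 to 89476 in the control livers. No marker of these lists was at 0. On array 3, where the ribosomal protein median was 0.02, the cell cycle median was -1.04, the macrophage median -0.96 and the hepatocyte median -0.88. The stellate and endothelial medians were nearer 0 on array 3 (-0.44 and -0.46) than on the others (-1.91 to -1.15 and -0.96 to -0.80). The part of these shifts in the ribosomal protein values was not tested.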

How the data were processed

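Liver RNA of 8 mice was measured on 4 two-colour arrays, each with 1 mouse of each group and each taken as 1 replicate; the labels call the mice biological replicates. Per the file headers, Feature Extraction 9.5.1.1 gave each spot's intensity, and the mean signal and median local background were used as deposited. The software's deposited log10 ratios, red over green, and the log2 ratios of the series table that the authors deposited served as alternatives, with the sign turned; each column of the series table had a median of 0 and matched the software's ratios of its array at r of 1. Precision is limited by having 4 arrays.

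In limma 3.58.1 (R 4.3.3), normexp with an offset of 50 corrected the background and loess normalized the ratios of each array, with control spots (1639 of 45018) at weight 0. Outlier spots were dropped and replicate spots averaged. A probe was kept if well above background on at least 3 arrays in 1 channel, and a gene took its brightest kept probe measured on at least 3 arrays. Mean log2 ratios (Plin2-ASO over control) were tested against 0 with lmFit and eBayes (two-sided, 7.21 total degrees of freedom), with Benjamini-Hochberg adjustment over all genes or all probes at 0.05. Every adjusted p in the text is from these fits, and SE is the moderated one. Levels are the channels' log2 intensities after loess and Aquantile normalization.

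Probes were named through RefSeq accessions or symbols of the GRCm38.p6 table (22951 by accession, 131 by another accession, 6582 by symbol, 3073 by older symbol, and 8437 under the file's own name). Coordinates of probes are in mm7, as deposited. Named genes were those with the 16 smallest p, the highest and lowest 3 of each subunit, genes whose probes differed in sign or by over 0.5, and a set of well-studied members; of each related list the 4 smallest p were named, and Deptor was added after its value was seen. Some genes that this rule chose are counted but not reported here by name. The members, the gene lists and the tests were chosen with earlier results of these data known. On simulated data of 18042 genes for this comparison, the fit recovered 100% of changes of 2 log2 units and 80% to 82% of changes of 1.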

Additional observations from a re-analysis of the deposited data

Results flagged for a closer look

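Of 60 sets of 4 values (the arrays of each gene named and of each median), 2 had an array far from the other 3; chance alone gives about 1 such set in 20. The log2 ratio of Rpl21 was -1.20 on array 3, against -0.06, -0.05 and 0.06 on arrays 1, 2 and 4. Its tested probe has a GC content of 75%, against a median of 45.0% for the members' probes. The median of the P stalk genes was -0.40 on array 3, against -0.85, -0.90 and -0.93 on arrays 1, 2 and 4. Over 3 genes the median is the value of 1 gene. It was that of Rplp1 on array 3 and that of Rplp2 on arrays 1, 2 and 4. Rplp2 itself had -0.82 on array 3, so the flag reflects a change of gene and not a shift of the whole stalk.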

How the results depend on the processing

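The median log2 ratio of the members stayed below 0 in every alternative run, but the number of calls depended on the setting. Genes lower among the members (13 of 75) numbered 23 with median centring, 26 with separate channels, 62 (with 2 higher) with array quality weights and 28 at an adjusted p under 0.1. They numbered 5 with the software's ratios, 4 with the series table and 6 with a trended, robust eBayes. After scaling between arrays limma called 0 (23 at an unadjusted p under 0.05). Leaving out 1 array gave 3 to 61, where 1.23% to 20.8% of all genes were called lower. Lower probes (19 of 120) numbered 30, 37, 85 and 41 in the first 4 of these settings, and 7, 5, 8 and 0 (29 unadjusted) in the next 4, with 3 to 84 when 1 array was left out. Over all genes 1753 calls became 929 with trend, 6907 with weights, 2998 at 0.1 and 0 after scaling (3215 unadjusted), and 365 to 5872 when 1 array was left out. These totals hold both directions. Except where 1 array was left out, the share of all genes called lower was not set beside the member counts. Those counts alone do not tell a change of the members from a change of all genes. The cause of these changes was not tested.

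Among the genes named, signs turned only for those near 0 or with discordant probes: Rpl27a (0.0056 with median centring, 0.053 with the mean of its probes, -0.37 to 0.12 without 1 array), Rpl35a (0.069 with the mean of its probes), Rpl6 (0.10 with the software's ratios and the series table, -0.15 to 0.050 without 1 array), Rps3a (-0.31 to 0.11 without 1 array) and Rpsa (-0.0015 with median centring, -0.027 with the mean of its probes). No called member named here changed sign. In the 15 settings with all arrays, Rps24, Rpl37a and Rpl7a each lost their call in 5, and Rps12, Rpl38, Rpl41 and Rplp2 each in 1. The test of the ratios against 0 is itself a paired analysis, because each ratio pairs the 2 mice of an array. A restriction to probes within the annotated protein was not run.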
